A study of Homo sapiens with 3 samples.

Results

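A set of 7 miRNA hairpins annotated on or inside small nucleolar RNAs (snoRNAs) was followed in the MV4-11 leukemia line: hsa-mir-664a, hsa-mir-664b, hsa-mir-1248, hsa-mir-1291, hsa-mir-3607, hsa-mir-3651 and hsa-mir-3653. They were chosen by name from the table of primary transcripts, and all 7 were listed, of 661 hairpins in all. The table of mature strands, of 851 rows, held 10 of their arms. These were both arms (5p and 3p) of mir-664a, mir-664b and mir-3607 and a single listed strand for each of the other 4 hairpins. The 7 hairpins took 0.0308%, 0.0337% and 0.0171% of all hairpin counts in replicates 1, 2 and 3, which was 3915, 3719 and 1998 counts.

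MV4-11 is a human acute myeloid leukemia cell line, labelled as FLT3-ITD positive and of wild type genotype. Small RNA was sequenced in 3 replicate samples of cells grown for 2 weeks, all of them infected with a lentiviral CRISPR-Cas9 empty vector, so that the miRNAs expressed in the line would be known. There was 1 group and no untreated or guide-carrying group, so no comparison between conditions could be made, and a single line with an integrated vector is the only model these data describe. The libraries held between 11022587 and 12722997 counts over hairpins, and no molecular identifiers were used. Intervals below cover counting error only and treat each read as an independent molecule, so they may be too narrow.

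SnoRNAs are nucleolar RNAs, mostly cut from introns, that guide the chemical modification of ribosomal and spliceosomal RNA. Those of the H/ACA box family (genes named SNORA) fold into a pair of hairpins and end shortly after an ACA trinucleotide, and they guide pseudouridylation. Those of the C/D box family (SNORD) guide 2′-O-methylation. Small RNAs can be cut from both families, and some of them have been annotated as miRNAs. A miRNA pairs with its targets mainly through its seed, taken here as bases 2 to 8.

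In the GENCODE annotation of GRCh38, 655 of the 661 listed hairpins could be located, and 7 of these overlapped an annotated snoRNA or small Cajal body RNA on the same strand. Of those 7 hairpins, 6 were from the set, and the other was hsa-mir-6516 in SCARNA16. mir-664a lay in SNORA36B, in an intron of RAB3GAP2, with 74 of its 82 bases. mir-664b lay wholly in SNORA36A at the DKC1 gene, in a stretch that is an exon only of a transcript classed as processed. DKC1 encodes dyskerin, the pseudouridine synthase that works with H/ACA snoRNAs. mir-1248 lay in SNORA81 with 103 of 106 bases, at EIF4A2, a translation initiation factor gene, in a stretch that is exonic only in retained-intron transcripts. mir-1291 lay in SNORA2C (formerly SNORA34), in an intron of KANSL2, with 75 of 87 bases. mir-3651 lay in SNORA84, in an intron of the isoleucyl-tRNA synthetase gene IARS, with 87 of 90 bases. mir-3653 lay in SNORD125, in an intron of AP1B1, and took in all 96 bases of that snoRNA. hsa-mir-3607 had no miRNA entry in that annotation, and RefSeq lists its name as a synonym of SNORD138 on chromosome 5. In all, 5 of the hairpins thus sat in H/ACA box genes and 2, mir-3607 and mir-3653, carried the name of a C/D box gene.

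RefSeq held mature sequences for 7 of the 10 arms, and these are printed 5′ to 3′ with the seed in capitals because the seed decides which transcripts such a strand could pair with.
miR-664a-5p: aCUGGCUAgggaaaaugauuggau
miR-664b-5p: uGGGCUAAgggagaugauugggua
miR-664a-3p: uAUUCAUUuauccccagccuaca
miR-664b-3p: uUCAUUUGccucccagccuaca
miR-1248: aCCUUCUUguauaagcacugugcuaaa
miR-1291: uGGCCCUGacugaagaccagcagu
miR-3651: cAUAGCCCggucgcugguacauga

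No seed was shared between any of these 7 arms. Among the other listed mature miRNAs, miR-1291 shared its seed with miR-6775-3p, whose mean level was 93.7 FPKM, and miR-664b-3p with miR-579-3p, at 188 FPKM. Only 679 of the 783 listed mature names had a RefSeq sequence, so further shared seeds could have been missed. FPKM is the count divided by the length of the annotation and by the reads of the library. The closest relatives were the arms of mir-664a and mir-664b. Their 3p strands were identical at 19 aligned bases, 86.4% of the shorter strand, and shared the last 11 bases, CCCAGCCUACA, but not the seed. Their 5p strands were identical at 18 of 24 bases. The hairpins were identical at 52 bases, 85.2% of the shorter hairpin, and SNORA36B and SNORA36A at 116 bases, 88.5% of the shorter. Reads from the shared stretch could be assigned to either gene by the counting, which makes the split between mir-664a and mir-664b uncertain for such reads.

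The arms were placed in their snoRNAs by exact match. The snoRNA sequences are given in GENCODE's DNA letters with the listed mature strands in capitals, to show where the strands lie.
SNORA36B with miR-664a-5p and miR-664a-3p: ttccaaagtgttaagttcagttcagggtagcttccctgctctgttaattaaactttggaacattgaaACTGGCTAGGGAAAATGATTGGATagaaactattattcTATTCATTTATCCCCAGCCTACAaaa
SNORA36A with miR-664b-5p and miR-664b-3p: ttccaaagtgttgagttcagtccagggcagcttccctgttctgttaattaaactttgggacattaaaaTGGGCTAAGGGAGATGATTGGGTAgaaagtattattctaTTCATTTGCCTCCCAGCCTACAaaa
SNORA84 with miR-3651: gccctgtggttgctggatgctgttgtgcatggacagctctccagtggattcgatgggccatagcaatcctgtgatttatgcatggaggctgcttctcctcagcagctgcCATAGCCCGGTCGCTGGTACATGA
SNORA2C with miR-1291: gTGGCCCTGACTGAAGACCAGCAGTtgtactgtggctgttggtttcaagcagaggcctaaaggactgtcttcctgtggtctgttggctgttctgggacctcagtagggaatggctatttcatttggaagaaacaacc
SNORA81 with miR-1248: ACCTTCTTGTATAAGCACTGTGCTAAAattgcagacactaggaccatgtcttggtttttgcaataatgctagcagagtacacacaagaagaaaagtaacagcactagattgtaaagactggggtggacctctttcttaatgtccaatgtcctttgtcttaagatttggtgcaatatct

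The RefSeq hairpins of these genes lie in GRCh38.p14 at chr1:220200538-220200619 on the minus strand (mir-664a), chrX:154768596-154768656 on the plus strand (mir-664b), chr9:92292458-92292547 on the minus strand (mir-3651), chr12:48654444-48654530 on the minus strand (mir-1291) and chr3:186786672-186786777 on the plus strand (mir-1248). miR-1248 was the first 27 bases of the 178 of SNORA81. miR-1291 ran from base 2 to base 25 of the 137 of SNORA2C. miR-664a-5p ran from base 68 to base 91 of 131 and miR-664b-5p from base 69 to base 92 of 132. The strands that remain lay toward the 3′ end. miR-664a-3p ran from base 106 to base 128 of 131, miR-664b-3p from base 108 to base 129 of 132, and miR-3651 from base 110 to the last base of 133.

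The letters ACA were looked for on the RNA strand at 1 place only, 3 bases before the 3′ end, where the H/ACA box is expected. They stood there in SNORA36A, SNORA36B, SNORA2C and SNORA84, and SNORA81 had ATA. In the annotation 112 of 149 SNORA genes (75.2%) and 4 of 288 SNORD genes (1.39%) had ACA at that place. Both mir-664 3p strands ended exactly with it and miR-3651 covered it. As a result 3 of the 7 member arms held ACA within their last 6 bases, compared with 131 of 2370 mature miRNAs in RefSeq (5.53%). That share follows from where these arms lie and is not a separate result. The miR-664a-3p and miR-664b-3p strands also share their last 11 bases. A match of 3 letters is a description of these strands and not of a bound protein.

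**Figure D1:**
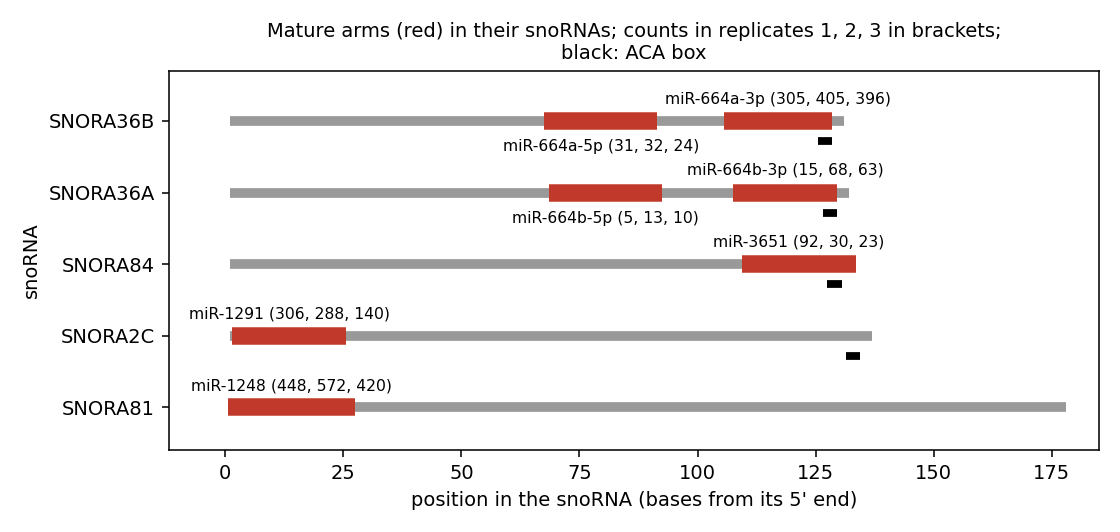
Position of the 7 matched mature arms (red) along their snoRNAs (grey, bases from the 5′ end), with the counts in replicates 1, 2 and 3 in brackets and the ACA box as a black bar. The miR-664a-3p, miR-664b-3p and miR-3651 strands lie at the 3′ end over the ACA box, and the miR-1291 and miR-1248 strands at the 5′ end.

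The 5 matched hairpins were also folded in silico with RNAfold. The minimum free energy per base was -0.285 kcal/mol for mir-664a, -0.309 for mir-3651, -0.325 for mir-1248, -0.407 for mir-664b and -0.409 for mir-1291. The median over 523 listed hairpins with a sequence was -0.468 kcal/mol per base. All 5 were therefore on the weaker side of the median, by unequal amounts. Of the 523, counted from the weakest, mir-664a ranked 14, mir-3651 35, mir-1248 49, mir-664b 147 and mir-1291 151. The share of paired bases ran from 58.5% in mir-664a to 75.4% in mir-664b, beside a median of 71.8%.

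The members covered a wide range of levels. The hairpin of mir-3607, the C/D box member on chromosome 5, was the most abundant. It had 2071, 1581 and 631 counts in replicates 1, 2 and 3, or 2087, 1839 and 690 FPKM, with a mean of 1538 ± 745 FPKM (SD, n = 3) and rank 151 of the 661 hairpins. The 3 libraries did not agree, and replicate 3 lay far below the other two. Its mean was above that of mir-1248 by 1052 FPKM, more than the larger SD, and the 2 ranges did not overlap.

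A middle group of 4 hairpins followed. mir-1248 had 604, 722 and 473 counts, with a mean of 487 ± 123 FPKM and rank 203. mir-664a had 341, 439 and 424 counts, with a mean of 423 ± 83.0 FPKM and rank 210. mir-3653, the C/D box member at AP1B1, had 445, 561 and 223 counts, with a mean of 321 ± 146 FPKM and rank 230. These were close neighbours whose ranges overlapped. mir-1291 had 333, 302 and 146 counts, with a mean of 256 ± 96.4 FPKM and rank 241. Between neighbours from mir-1248 down to mir-1291 the means differed by less than the larger SD and the ranges overlapped. By FPKM within libraries, mir-664a exceeded mir-3653 and mir-3653 exceeded mir-1291 in 3 of 3 libraries, and mir-1248 exceeded mir-664a in 2 of 3. In replicate 1 mir-664a had 331 FPKM and mir-3653 321. The order of counts differed, as FPKM divides by length (81 bases for mir-664a, 109 for mir-3653 and 105 for mir-1248). By counts mir-3653 exceeded mir-664a in replicates 1 and 2, and mir-1248 exceeded mir-664a in 3 of 3 libraries.

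mir-664b and mir-3651 were the least abundant. mir-664b had 20, 81 and 73 counts and a mean of 84.2 ± 51.1 FPKM, at rank 318, and mir-3651 had 101, 33 and 28 counts and a mean of 49.9 ± 34.2 FPKM, at rank 361. mir-1291 exceeded mir-664b by 172 FPKM, above the larger SD and without overlap of the ranges, whereas mir-664b and mir-3651 differed by less than the larger SD. The median over all hairpins was 68.3 FPKM, so 6 of the 7 hairpins lay above it and mir-3651 below it.

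**Figure D2:**
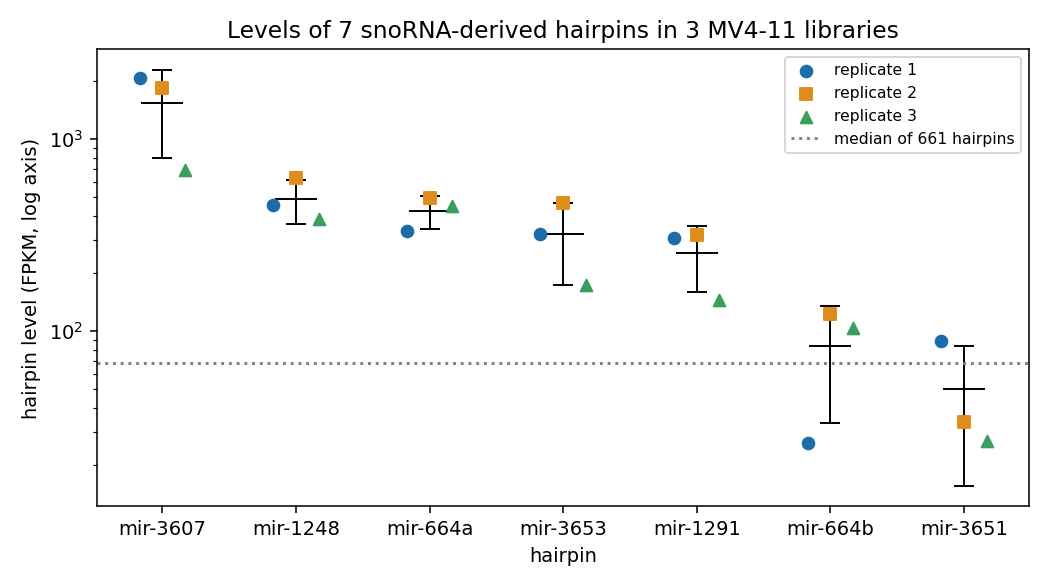
Level of each hairpin in FPKM (log axis) in replicates 1, 2 and 3 (circle, square, triangle), with the mean and SD in black and the median of all 661 hairpins, 68.3 FPKM, as a dotted line. mir-3607 stands above the others, and its replicate 3 value of 690 FPKM is the lowest of its 3.

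At the level of mature strands the order was similar. miR-3607-3p was the highest, with 2052, 1530 and 603 counts and a mean of 6182 ± 3059 FPKM, rank 158 of 783 mature names. It was followed by miR-1248 with 448, 572 and 420 counts (1580 ± 365 FPKM), and by miR-664a-3p with 305, 405 and 396 counts (1436 ± 305 FPKM). miR-3653 had 230, 318 and 72 counts (1043 ± 670 FPKM) and miR-1291 had 306, 288 and 140 counts (903 ± 334 FPKM). These 5 strands made up the upper part of the set. Mature FPKM values stand above hairpin values because the mature annotation is shorter, and the 2 scales are not compared here. The authors' FPKM used a length of 17 bases for miR-3653, which raises its FPKM relative to its counts, since the lengths used for the other arms were 19 to 26. For the 7 arms and 5 hairpins with a RefSeq sequence, the length used was 1 base below that of the sequence.

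The remaining strands were rarer. miR-3607-5p had 72, 335 and 39 counts and a mean of 627 ± 716 FPKM, at rank 328, with replicate 2 far above the other two. miR-664b-3p had 15, 68 and 63 counts, miR-3651 had 92, 30 and 23, miR-664a-5p had 31, 32 and 24, and miR-664b-5p had 5, 13 and 10. miR-664b-5p was therefore close to the lower limit of the table, at rank 736 of 783.

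For the 3 hairpins with both arms listed, the question was which arm the reads came from. In each of them the 3p strand exceeded the 5p strand in 3 of 3 libraries. In mir-664a the 3p counts were 9.84, 12.7 and 16.5 times the 5p counts in replicates 1, 2 and 3. The log2 ratio was 3.66 ± 0.33 (SE, n = 3), with an adjusted p of 0.000166 in the quasi-likelihood test of edgeR with Benjamini-Hochberg adjustment over 196 arm pairs. In mir-664b the ratios were 3.00, 5.23 and 6.30, with a log2 ratio of 2.28 ± 0.38 and an adjusted p of 0.00223 in the same edgeR test. In mir-3607 they were 28.5, 4.57 and 15.5, with a log2 ratio of 3.65 ± 0.61 and an adjusted p of 0.00228 in the same edgeR test. The arm counts of mir-3607 summed above its hairpin count, as given below. Of all 196 pairs, 82.1% were called for unequal arms and 41.3% were called toward 3p, so unequal arms were the usual state and the 3 of 3 members toward 3p are read against 41.3%.

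The balance of counts on the 2 listed arms differed between libraries in mir-3607 beyond counting error. These arm counts summed above the hairpin by 53, 284 and 11 reads in replicates 1, 2 and 3. How far that excess set the 5p share, above all in replicate 2, was not tested. The 5p share of both arms was 9.23%, 7.32% and 5.71% in mir-664a and 25.0%, 16.0% and 13.7% in mir-664b, with Wilson 95% intervals that overlapped between libraries in each hairpin. In mir-3607 it was 3.39% (2.70 to 4.25) in replicate 1, 18.0% (16.3 to 19.8) in replicate 2 and 6.07% (4.48 to 8.20) in replicate 3. miR-3607-5p itself had 72, 335 and 39 counts and so was high in replicate 2 alone, whereas miR-3607-3p was highest in replicate 1. Without replicate 2 the log2 ratio of mir-3607 was 4.40 and without replicate 1 it was 2.90.

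**Figure D3:**
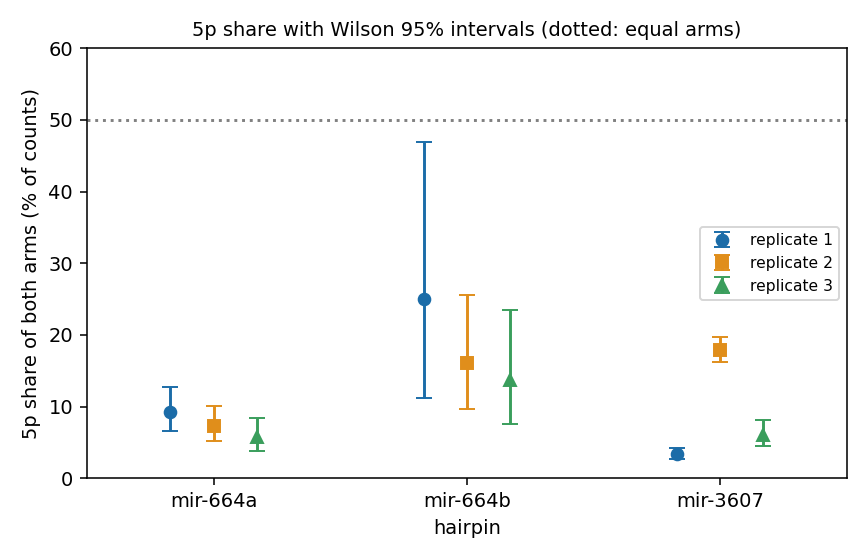
Share of the 5p strand in the counts of both arms (percent, with Wilson 95% intervals) for the 3 hairpins with 2 listed arms in replicates 1, 2 and 3, with equal arms as a dotted line. Every point lies below the line, and the 18.0% of mir-3607 in replicate 2 stands above its other 2 values. In that library the arms of mir-3607 summed to 284 reads above its hairpin.

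The hairpin counts can also be set against the counts of the listed arms. Reads counted on a hairpin but on none of its listed arms come from elsewhere in the annotation, which for a snoRNA includes the body of the snoRNA, and for the 4 hairpins with a single listed strand includes any unlisted opposite arm. Between these sources the tables give no split. In mir-3653 the share outside was 48.3% (exact 95% interval 43.6 to 53.1), 43.3% (39.2 to 47.5) and 67.7% (61.1 to 73.8) in replicates 1, 2 and 3, or 215, 243 and 151 reads. This was a mean of 53.1 ± 12.9% and rank 6 of 316 hairpins with at least 100 counts and unambiguous arms. In mir-1248 it was 25.8% (22.4 to 29.5), 20.8% (17.9 to 23.9) and 11.2% (8.51 to 14.4), with a mean of 19.3 ± 7.43% and rank 18.

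The lower count of mir-3653 in replicate 3 fell unevenly over its annotation. The listed strand went from 318 counts in replicate 2 to 72 in replicate 3, and the reads outside it from 243 to 151, so the share outside was highest in replicate 3, above the intervals of the other two. mir-1248 showed the opposite order. Its strand went from 572 to 420 counts and its outside reads from 150 to 53, and its share outside was lowest in replicate 3.

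The other hairpins had fewer reads outside. mir-3651 had 8.91%, 9.09% and 17.9%, from only 9, 3 and 5 reads, and its exact intervals overlapped. mir-1291 had 8.11%, 4.64% and 4.11%, and mir-664a had 1.47%, 0.456% and 0.943%. mir-664b had no read outside its 2 arms, which allows a share of up to 15%, 3.70% and 4.11% in the 3 libraries if 3 counts are taken as the limit of a count of 0. The exact 95% intervals reached 16.8%, 4.45% and 4.93%. These limits cover counting only. The mir-664b arms take bases 1 to 24 and 40 to 61 of a hairpin of 61 bases. Few bases lay outside them, so a share near 0 was largely set by the annotation. The mir-664a arms take bases 11 to 34 and 49 to 71 of 82, which also leaves only short gaps.

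mir-3607 could not be described in this way, because its arms summed to more than the hairpin. The excess was 53, 284 and 11 reads, or 2.56%, 18.0% and 1.74% of the hairpin count. It was the highest excess of the 316 hairpins, of which 2 passed 5% in any library and 10 had any excess. The library with the largest excess, replicate 2, was the one in which miR-3607-5p was high. Whether reads were counted on both arms or at a further place was not tested.

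Over 10% outside in all 3 libraries was reached by 2 of the 7 members, mir-3653 and mir-1248, and by 6.33% of the 316 hairpins. The median share was 5.62% in the 7 members with mir-3607 counted as 0, 8.79% in the 6 members without it, and 0.270% in all 316. Single-strand annotation moves with this measure. Of 148 hairpins with 1 listed arm 17 were over 10%, with a median of 1.17%, and of 168 with 2 listed arms 3 were, with a median of 0.0600%. Both members over 10% had 1 listed arm. They were also the longest member hairpins, with lengths used for FPKM of 109 and 105 bases, beside 60 to 89 in the other members. How much of each hairpin lay outside its listed arms was not taken into account. The part of either in the result was not tested.

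**Figure D4:**
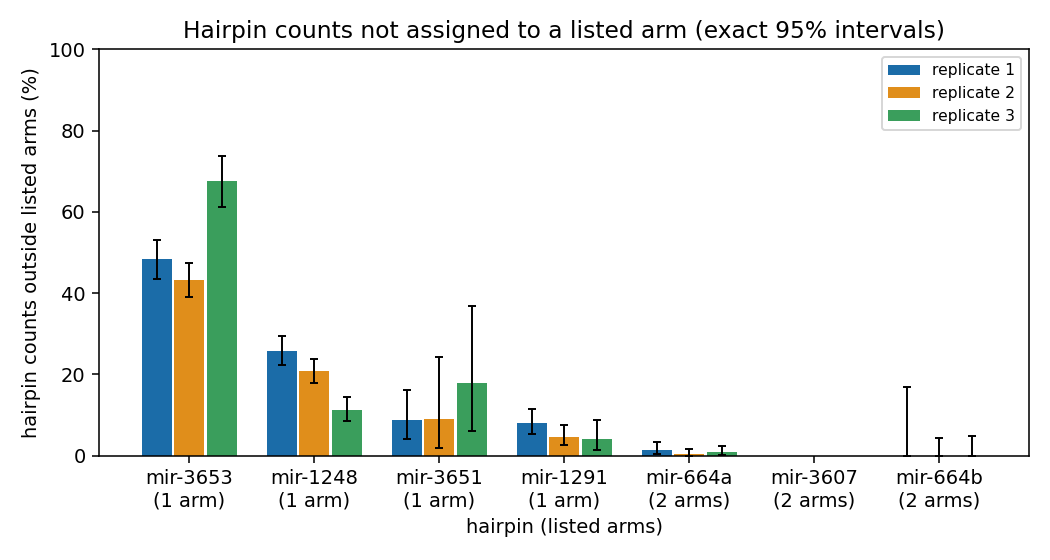
Percent of hairpin counts outside the listed arms in replicates 1, 2 and 3 (bars, with exact 95% intervals) for each hairpin. mir-3653 reaches 67.7% in replicate 3, and mir-664b, whose arms cover most of its hairpin, has no such read. mir-3607 is at 0 with no interval because its arms summed above its hairpin.

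The libraries differed for most of these hairpins by more than for the typical hairpin, and in the median this depended on replicate 3. The low values in replicate 3 were noticed in the data first and are given as a description. The median coefficient of variation over the 3 libraries was 45.6% for the members and 28.8% for all 661 hairpins, or 24.4% for the 397 hairpins with at least 100 counts. Without replicate 3 the members' median was 26.2% and that of all hairpins 29.0%, so the members' median was then no longer above the rest. In that setting mir-664b and mir-3651 still had 91.6% and 64.0%. Without replicate 1 the medians were 33.6% for the members and 12.6% for all hairpins. Counting error alone, which is only a lower limit for the spread between samples, would give 2.65% for mir-3607, whose value was 48.4%, and 13.6% for mir-3651, whose value was 68.5%.

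All 7 hairpins were lower in replicate 3 than in replicate 2, compared with 34.5% of the 397 hairpins with at least 100 counts. The difference on the log2(FPKM + 1) scale was -1.41 for mir-3607, -1.41 for mir-3653, -1.13 for mir-1291, -0.70 for mir-1248, -0.31 for mir-3651, -0.24 for mir-664b and -0.14 for mir-664a. The median over the 397 hairpins was 0.10. A fall of over 1 was seen in 0.756% of them, which was 3 hairpins, and these were mir-3607, mir-3653 and mir-1291. The fall was thus steep for both C/D box members and for mir-1291, and small for both mir-664 hairpins and for mir-3651, which had only 33 and 28 counts in replicates 2 and 3.

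Other scalings were tried because the libraries differed in composition, with TMM factors of 0.837, 1.05 and 1.13. With TMM factors, or with median-of-ratios factors, the median over hairpins was -0.01 or -0.02, and 51.4% or 52.1% of the 397 hairpins were lower in replicate 3. All 7 members were again lower, and the same 3 hairpins were the only ones to fall by over 1. Against replicate 1, where the median over all hairpins was 0.48, the picture was mixed. mir-3651 (-1.70), mir-3607 (-1.59), mir-1291 (-1.07), mir-3653 (-0.87) and mir-1248 (-0.23) were lower in replicate 3, and mir-664a (0.43) and mir-664b (1.95) were higher. The sign for mir-664a turned with scaling, to -0.00 with TMM and -0.05 with median of ratios.

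**Figure D5:**
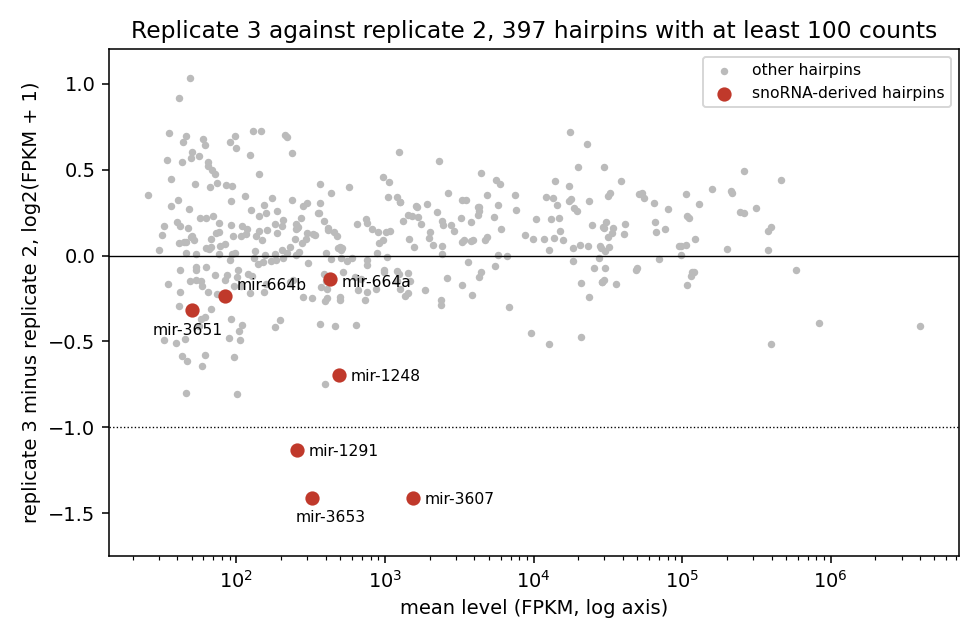
Replicate 3 minus replicate 2 on the log2(FPKM + 1) scale against mean level (FPKM, log axis) for 397 hairpins with at least 100 counts, with the 7 snoRNA-derived hairpins in red. All 7 lie below 0, but the counting intervals of replicates 2 and 3 overlapped for mir-664a, mir-664b and mir-3651. mir-1291, mir-3653 and mir-3607 are the only points below the dotted line at -1.

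Which library set the spread differed between members. Without replicate 3 the coefficient of variation fell to 8.93% for mir-3607, 3.23% for mir-1291 and 26.2% for mir-3653. Without replicate 1 it was 11.6% for mir-664b, which had 20 counts there, and 15.9% for mir-3651, which had 101. These 2 rare hairpins moved in opposite directions in replicate 1. For mir-664a it was 19.6% as deposited and 9.87% with TMM factors.

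Other hairpins cut from unusual precursors gave a frame for this. Of 12 mirtrons (miRNAs spliced out as short introns) 7 were listed, with a median level of 62.4 FPKM, a median coefficient of variation of 24.3% and 6 of 7 lower in replicate 3 than in replicate 2. Of 10 names in or like other structural RNA, 6 were listed, with medians of 303 FPKM and 19.3%, and 5 of 6 were lower in replicate 3. Neither list held a fall of over 1. The share outside the arms could be read for 4 of these mirtrons and 3 of the structural RNA hairpins, and none of those 7 was over 10% in all libraries. hsa-mir-6516 in SCARNA16, the remaining hairpin in such an RNA, had 83, 205 and 219 counts, a coefficient of variation of 47.9%, a difference of 0.01 between replicates 3 and 2 and 0.402% of counts outside.

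The hairpins nearest in profile, by distance of log2(FPKM + 1) over the 3 libraries, were found for each member. The closest pair was mir-664a with mir-500b (0.17), followed by mir-6774 (0.22). mir-1248 was nearest to mir-200a (0.33) and mir-548o (0.40), mir-3651 to mir-3686 (0.39) and mir-5690 (0.51), and mir-664b to mir-624 (0.46) and mir-4517 (0.53). The 3 members with a fall of over 1 in replicate 3 had the largest distances, and no other hairpin with at least 100 counts shared such a fall. The smallest distances were 0.71 for mir-1291 (mir-7706, then mir-1255a at 0.72), 0.85 for mir-3653 (mir-7641-2, then mir-4485 at 0.87) and 0.91 for mir-3607 (mir-7704, then mir-30a at 0.94). These distances rest on 3 libraries and take in the level as well as the profile. The fall was noticed in the same values, so the distances are not a separate result.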

How the data were processed

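Small RNA libraries of 3 replicate MV4-11 samples were used. The authors counted reads over the mature strands and the primary transcripts of miRBase. The submitters' processing notes name Novoalign 2.08.03 and the builds hg19 and mm10, with no role. The deposited counts are whole reads and not normalized. The deposited FPKM equalled counts divided by a feature length, 1 base short of the RefSeq sequence where one was known, and by a library total. Trimming was not given in the sources used here.

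Arms were compared with edgeR 4.0.16 (R 4.3.3), with the library as block, over 196 pairs with at least 10 counts, and called at adjusted p under 0.05 and an absolute log2 ratio of at least 1. SEs were taken from the log2 ratio and the F statistic. limma 3.58.1 and DESeq2 1.42.0 were alternatives. Shares have 95% Wilson (arms) or exact Clopper-Pearson (outside arms) intervals. Log values used a pseudocount of 1. GENCODE 29, RefSeq sequences and RNAfold 2.7.2 gave position, sequence and folding.

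The members and lists were chosen with earlier results of these data known. Named were all members and arms, the 2 nearest hairpins of each member, and listed miRNAs with a shared seed. The labels number the 3 samples but do not say that they came from separate cultures, so p-values and SDs measure only the spread between these samples, which may be technical.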

Additional observations from a re-analysis of the deposited data

How the results depend on the processing

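The number of arm pairs called was 161 of 196 and ran from 140 to 169 when 1 library was left out, and the 3 member pairs were called toward 3p in all 8 alternatives, with adjusted p of at most 0.0328. The filters of at least 10 counts in the lower arm and of no minimum gave the same pairs. The count of hairpins with over 10% outside the arms was 20, and it was 7 with at least 1000 counts and 5 with a threshold of 50%, by construction. The members' median coefficient of variation was 45.6% and ran from 26.2% to 50.2% with 1 library left out, and that of all hairpins was 28.8% and ran from 12.6% to 31.8%. Without replicate 3 the members' median (26.2%) was below that of all hairpins (29.0%), so the higher median spread was lost and its direction turned. Why was not tested. Leaving out mir-3607, whose arms exceed its hairpin, moved the members' median share outside the arms from 5.62% to 8.79%. Of 160 recomputed values, 145 stayed within the limits set for a change. The comparison of replicates 3 and 2, its scalings and the median without mir-3607 were chosen after seeing the data. Shallow members limit precision: mir-3651 and mir-664b rest on 162 and 174 counts in all.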
